A study of Mus musculus with 2 samples.

Results

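The mitochondrial ribosomal proteins and the TIM and TOM import translocases were taken by gene name from a mouse whole-genome array, as the gene probes named Mrpl or Mrps plus a number, or Timm or Tomm plus a number. The rule gave 94 genes with 159 probes, of 19505 named genes and 41174 gene probes on the array. They were 46 large subunit genes (Mrpl), 29 small subunit genes (Mrps), 12 inner membrane and intermembrane space import genes (Timm) and 7 import genes named for the outer membrane (Tomm). A gene counted as measured where the scanner software marked any of its probes well above background on either array, which held for 93 members and not for Timm8a2. The group was chosen by the day 6 against day 0 differences of these same arrays, in which Mrpl and Mrps genes had stood out as low in an earlier look, so the values below describe it and test nothing.

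RNA came from R1, a mouse line of embryonic stem (ES) cells. The day 6 group was embryoid body (EB) cells, floating aggregates taken 6 days into a direct neural differentiation and described in the labels as neural precursors. The day 0 group was undifferentiated ES cells, kept on inactivated fibroblast feeders with 15% serum and leukaemia inhibitory factor at 1000 U/ml. Each group was 1 total RNA sample on 1 single-colour array, so no difference below has a replicate check, and no test between the days was possible.

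The mitochondrial ribosome, a descendant of the bacterial ribosome, makes the few oxidative phosphorylation subunits encoded by mitochondrial DNA. Its RNA is made inside the organelle, while its proteins are encoded in the nucleus, made in the cytosol and imported. Precursors pass the outer membrane through the TOM complex, then follow the TIM23 complex into the matrix or inner membrane, or the small TIM chaperones and the TIM22 complex into the inner membrane.

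Each difference is the log2 day 6 minus day 0 intensity after each array was scaled to its 75th percentile, 4388 units for the day 6 array and 3758 for the day 0 array. Of 41174 gene probes, 65.5% were well above background on day 6 and 61.5% on day 0. The median over all 14967 genes measured was -0.09. All 7 pluripotency markers passed 2-fold lower on day 6, with Pou5f1 at 302 on day 6 and 41679 on day 0, and 5 of 5 neuronal and 5 of 6 neural precursor markers passed 2-fold higher. Of 8 fibroblast markers 5 passed 2-fold lower (Lox, S100a4, Thy1, Col1a1 and Col1a2), while Dcn (-0.66), Col3a1 (0.22) and Postn (0.29) did not differ by 2-fold. The 8 summed to 24649 intensity units on day 6 and 125107 on day 0, with Lox not well above background on day 6, and the part of feeder RNA in the members' values was not tested. Counting genes well above background on 1 array by their bound, endoderm markers passed 2-fold higher in 2 of 4 genes, and mesoderm markers were higher in 1 (Tbx6) and lower in 1 (Hand1) of 4. Of the blood and endothelium markers, Hba-x and Hbb-bh1, which encode globins of the embryo, were detected on day 6 alone, and Tek and Pecam1 on day 0 alone, each past 2-fold by its bound. A lower signal from fewer cells of a type and from less RNA per cell cannot be told apart in bulk RNA.

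Most members had lower values on day 6. Of 93 measured members, 79 (84.9%) had a difference below 0, where 53.7% of all genes were below 0 and 46.3% above it. Their median was -0.53, a 1.44-fold lower value, with an SD between genes of 0.50 and a range of -1.85 to 0.82. At the 2-fold mark, 13 members (14.0%) were lower and 0 were higher, while among all genes 20.9% were lower and 20.2% higher by that much (20.1% and 17.8% with genes well above background on 1 array counted by their bound). At 1.5-fold, 41 members (44.1%) were lower and 2 (2.15%) were higher, against 31.5% and 28.1% of all genes. The members thus had many small differences in 1 direction and no larger a share of 2-fold differences than the array as a whole.

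The members' median stayed below 0 under each scaling, but its size and the sign of small differences varied. With quantile normalization, which sets the median of all genes to 0, 67 of 93 members were below 0 with a median of -0.27, 6 passed 2-fold lower, and 2, Mrpl14 and Mrpl23, passed 2-fold higher. With quantile normalization 19.7% of all genes were 2-fold lower and 20.6% higher. Without scaling, 70 members were below 0 with a median of -0.31, and with median scaling 84 with a median of -0.64. All genes had medians of 0.13 without scaling and -0.21 with median scaling. Of the 13 members past 2-fold lower, Mrps18b, Tomm40, Mrps12 and Mrps34 stayed so in each of 12 alternatives, and the other 9 came under 2-fold in at least 1.

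The scanner software's error for a member's difference was 0.20 log2 units (SD, technical error only, without the spread between cultures). It was nearly the same for every member (0.2040 to 0.2049). For members, a mark of 2 software errors is thus nearly 1 fixed size of difference, not a spread measured gene by gene. By that measure 56 members were lower and 2 higher by over 2 software errors, and 35 lay within 2 software errors of 0. Among all genes 36.4% were lower and 29.9% higher by that mark. All 4 classes had medians below 0, at -0.49 for the large subunit, -0.57 for the small subunit, -0.47 for Timm genes and -0.58 for Tomm genes. The Timm median was the least stable, at -0.067 with quantile normalization, -0.063 in the authors' value table, -0.14 with cyclic loess, -0.25 without scaling, -0.18 when a gene's probes were averaged and -0.027 over probes. The large and small subunit medians were -0.21 and -0.29 with quantile normalization.

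**Figure D1:**
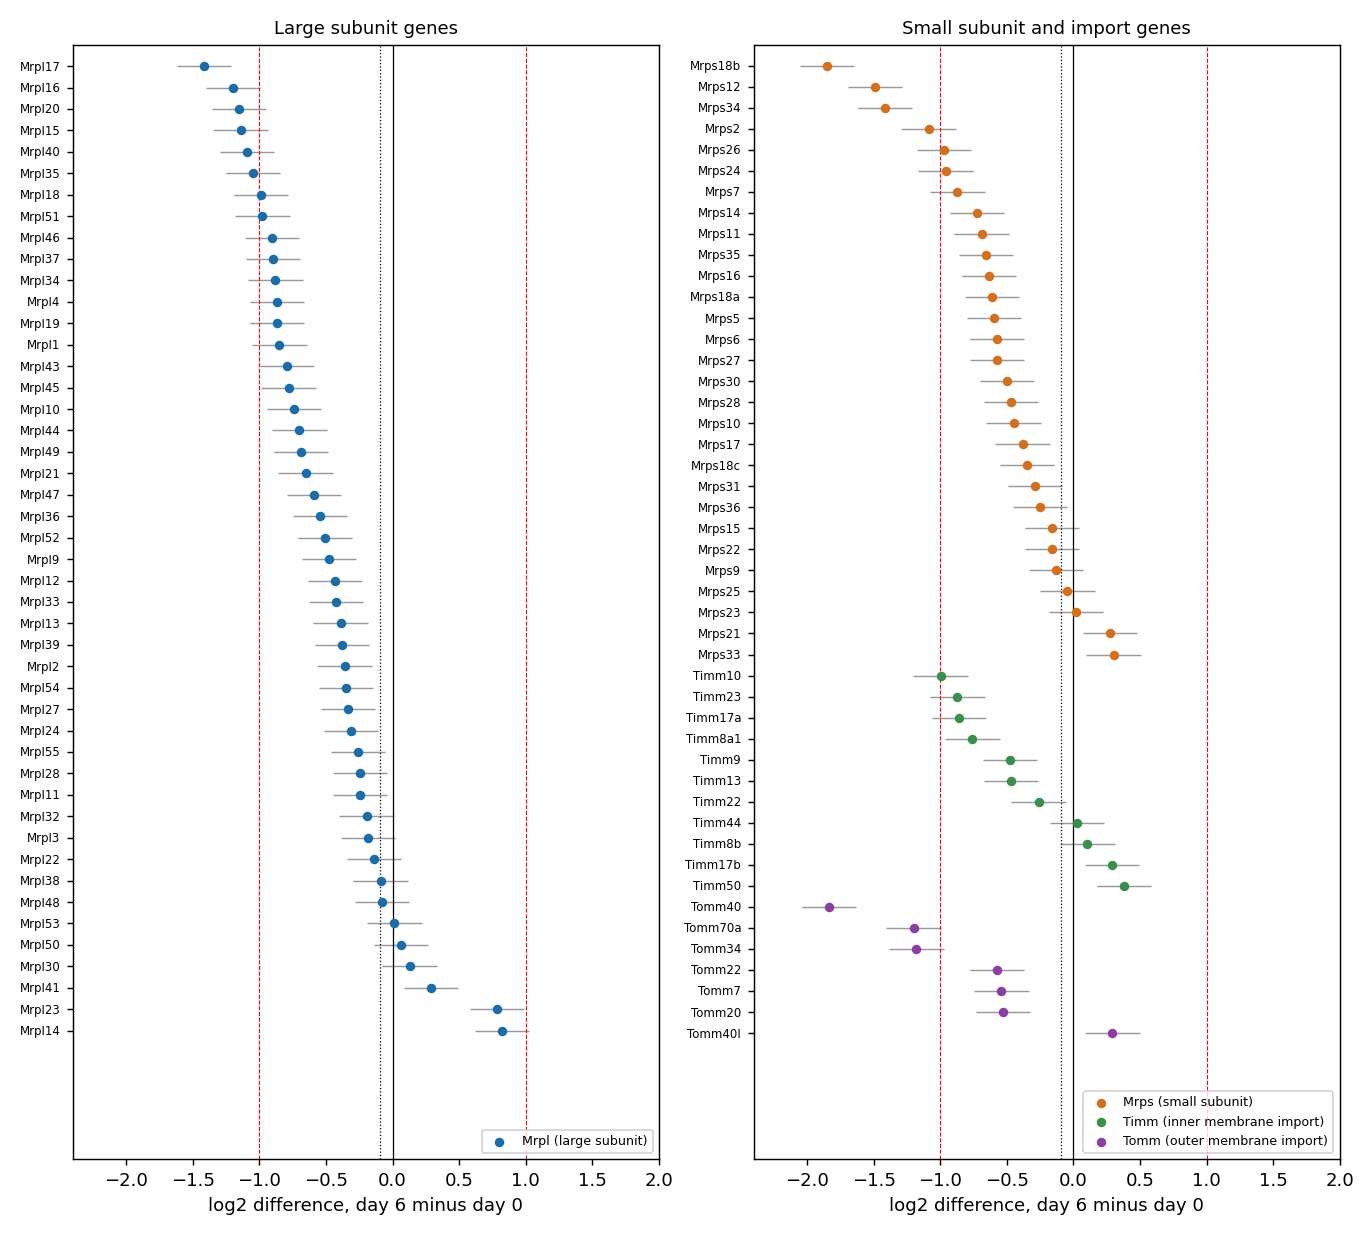
Log2 difference, day 6 minus day 0, of the 93 measured members, 1 point per gene, with bars for 1 software error SD. Solid, dotted and dashed vertical lines mark 0, the median of all genes (-0.09) and 2-fold differences. Most points lie left of 0 in each class, 13 lie past the 2-fold line on the left and 0 on the right.

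The sign of all genes on these arrays varied with their intensity, and members were bright, so members were also set beside genes of similar intensity. In the band of 5000 to 20000 intensity units, 26 of 30 members were below 0 (median -0.62), where 53.5% of all genes were (median -0.07). Between 20000 and 50000 units, 28 of 34 members were below 0 (median -0.38), where 63.7% of all genes were (median -0.24). At 50000 units or more, 22 of 26 members were below 0 (median -0.52), where 76.8% of all genes were (median -0.32). The gap in these shares was thus narrowest among the brightest genes. No chance test was made of these shares.

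**Figure D2:**
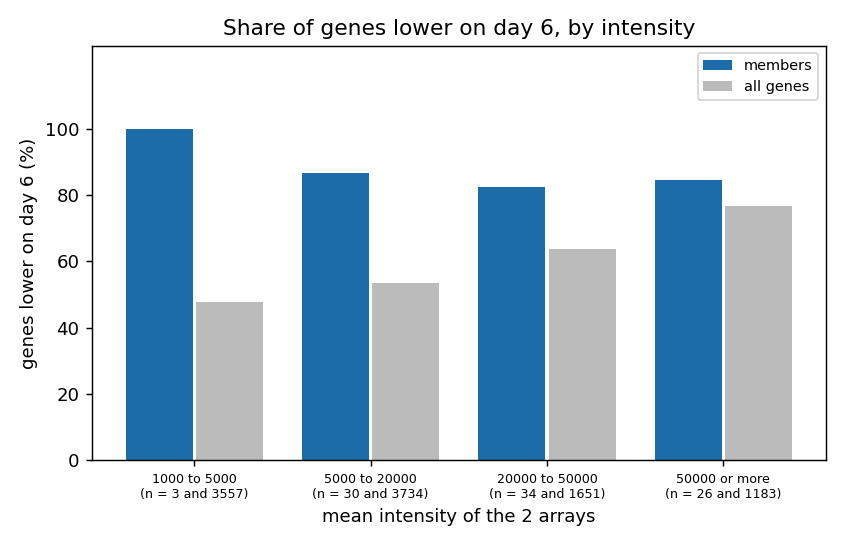
Share of genes with a lower value on day 6, in bands of mean intensity, with members left of all genes in each band and the number of members and of all genes below. The lowest member share is 28 of 34, between 20000 and 50000 units, while the share of all genes is higher in the brighter bands and reaches 76.8% in the brightest.

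The large subunit holds the peptidyl transferase centre and the exit tunnel. Of its 46 genes, 40 (87.0%) had values below 0, 6 (13.0%) passed 2-fold lower and 0 passed 2-fold higher. Among all genes these shares were 53.7%, 20.9% and 20.2%. Intensities ran between 5862 and 122331 on day 6 and between 6986 and 156312 on day 0. Mrpl17, whose bacterial counterpart is the large subunit protein bL17, had 20292 on day 6 and 46311 on day 0 and a log2 difference of -1.41 ± 0.20 (software error SD). Mrpl16, counterpart of the bacterial protein uL16, had 27549 on day 6 and 54076 on day 0 (-1.20 ± 0.20), and Mrpl20, counterpart of bL20, had 73594 on day 6 and 139942 on day 0 (-1.15 ± 0.20). The 3 differences are each several times the software error, which was nearly the same for every member.

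Another 3 large subunit genes passed 2-fold by less. Mrpl15, counterpart of uL15, had 13908 on day 6 and 26282 on day 0 (-1.14). Mrpl40, a subunit without a bacterial counterpart, had 38702 on day 6 and 70665 on day 0 (-1.09). Mrpl35, counterpart of bL35, had 28384 on day 6 and 50289 on day 0 (-1.05), and was the member just inside the 2-fold mark. Just outside it stood the import gene Timm10 with -0.997, Mrpl18 with -0.99 and Mrpl51 with -0.98, and Mrpl18's probes are described further on.

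At the other end, 6 large subunit genes had values above 0. Mrpl14, counterpart of uL14 at the subunit interface, had 57319 on day 6 and 27748 on day 0, a difference of 0.82 ± 0.20. Mrpl23, counterpart of uL23 near the exit tunnel, had 122331 on day 6 and 60933 on day 0, a difference of 0.78 ± 0.20. These 2 were the members past 1.5-fold higher, and each had only 1 probe. The other 4 were Mrpl41 (0.29), Mrpl30 (0.13), Mrpl50 (0.06) and Mrpl53 (0.01), followed below 0 by Mrpl48 (-0.08) and Mrpl38 (-0.09). A fainter RefSeq probe of Mrpl50, with 6437 on day 6 and 8011 on day 0, gave -0.54. Further probes of Mrpl38 gave -0.07 and -0.91. Genes of large subunit proteins with bacterial counterparts had a median of -0.48 (29 genes), and those of mitochondria-specific proteins -0.51 (17 genes).

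The small subunit binds messenger RNA and holds the decoding centre. Of its 29 genes, 26 (89.7%) had values below 0, 4 (13.8%) passed 2-fold lower and 0 passed 1.5-fold higher. Among all genes these shares were 53.7%, 20.9% and 28.1%. Mrps18b, 1 of 3 paralogues related to bacterial bS18, had 1459 on day 6 and 4501 on day 0, a difference of -1.85 ± 0.20 and the lowest of all members by brightest probe. A fainter Mrps18b clone probe, listed on the opposite strand, had 355 on day 6 and 594 on day 0 (-0.96), short of 2-fold. Mrps12, counterpart of uS12 in the decoding centre, had 21885 on day 6 and 52616 on day 0 (-1.49 ± 0.20). Mrps34, a mitochondria-specific subunit, had 20874 on day 6 and 47678 on day 0 (-1.41 ± 0.20), and Mrps2, counterpart of uS2, had 8403 on day 6 and 15296 on day 0 (-1.09). The next lowest were Mrps26 (-0.97), Mrps24 (-0.96), Mrps7 (-0.87) and Mrps14 (-0.73).

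The 3 small subunit genes above 0 were Mrps33, with 126184 on day 6 and 87692 on day 0 (0.30), Mrps21 (0.28) and Mrps23 (0.02). Below them came Mrps25 (-0.04), Mrps9 (-0.13), Mrps22 (-0.16), Mrps15 (-0.16) and Mrps36 (-0.25). Fainter probes gave 0.36 for Mrps25, -0.13 and 0.03 for Mrps9, 0.68 for Mrps15 and 0.02 for Mrps36. Small subunit genes with bacterial counterparts had a median of -0.60 (18 genes), against -0.29 for mitochondria-specific ones (11 genes). That gap of medians was not tested, and both groups ranged widely. Mrps18a (-0.61) and Mrps30 (-0.50) carry small subunit names here, although their products are known to sit in the large subunit.

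The 3 bS18-related genes differed in size but not in sign. Against Mrps18b's -1.85, Mrps18a had 19958 on day 6 and 26127 on day 0 (-0.61), and Mrps18c had 32455 on day 6 and 35424 on day 0 (-0.35). Mrps18b was lower than Mrps18a by a difference of differences of -1.24 ± 0.29 and than Mrps18c by -1.50 ± 0.29 (combined software error). Mrps18a and Mrps18c were -0.26 ± 0.29 apart, within that error.

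The Mrps18b and Tomm40 values, the lowest of the members, rest on probes whose placement spans more of the genome than their 60 bases, as across an intron, and the sequences of 3 such probes show what was read. The Mrps18b probe, for NM_025878, is placed at chr17:34018542-34018690 (mm7, minus strand), and covers 149 bases of genome. The Tomm40 probe for NM_016871 lies at chr7:17396112-17396702 (minus strand). A fainter Tomm40 probe, for the clone BC038887, lies at chr7:17396683-17397362 and is listed on the plus strand. Capitals mark 20 bases that the Tomm40 probes share as reverse complements, found by a search of each against the other.
Mrps18b probe: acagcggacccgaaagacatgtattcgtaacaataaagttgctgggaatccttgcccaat
Tomm40 probe, NM_016871: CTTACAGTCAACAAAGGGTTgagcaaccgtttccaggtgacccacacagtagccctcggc
Tomm40 probe, BC038887: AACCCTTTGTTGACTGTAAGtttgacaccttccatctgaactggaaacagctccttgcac

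The Tomm genes, which include the cytosolic Tomm34, had the widest spread of the 4 classes (SD between genes 0.68). Of 7 genes, 6 were below 0, 3 passed 2-fold lower and 0 passed 2-fold higher. Among all genes these shares were 53.7%, 20.9% and 20.2%. Tomm40, the channel of the TOM complex, had 3333 on day 6 and 10191 on day 0, a difference of -1.84 ± 0.20. Its second probe above, on the opposite listed strand, had 103 on day 6 and 331 on day 0 (-1.91 ± 0.35). That day 6 value is close to 85.2, the lowest well above background on that array. Whether this probe reads Tomm40 RNA was not tested. Both Tomm40 probes were well above background on both arrays and gave nearly the same difference at very different brightness, unlike the opposite-strand probe of Mrps18b (-0.96 against -1.85).

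Of the other Tomm genes, Tomm20, Tomm22 and Tomm7 were close to the median of the members by their brightest probes. Tomm20, a receptor for presequences, had 194471 on day 6 and 240704 on day 0 (-0.53). A fainter Tomm20 clone probe, with 18691 on day 6 and 16993 on day 0, gave -0.09. Tomm22, the central receptor, had 16818 on day 6 and 21467 on day 0 (-0.58). Tomm7, a small TOM subunit, had 96587 on day 6 and 120368 on day 0 (-0.54). Tomm34, a cytosolic protein that binds chaperones and precursors, had 2629.8 on day 6 and 5099 on day 0 (-1.18). Tomm70a, the receptor for carrier proteins, had 55812 on day 6 and 109798 on day 0 (-1.20) on its brightest probe, and its remaining probes, described below, read otherwise. Tomm40l, a paralogue of the channel, was the exception in sign, with 6797 on day 6 and 4751 on day 0 (0.29 ± 0.20). Tomm40 and Tomm40l differed from each other by -2.13 ± 0.29.

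**Figure D3:**
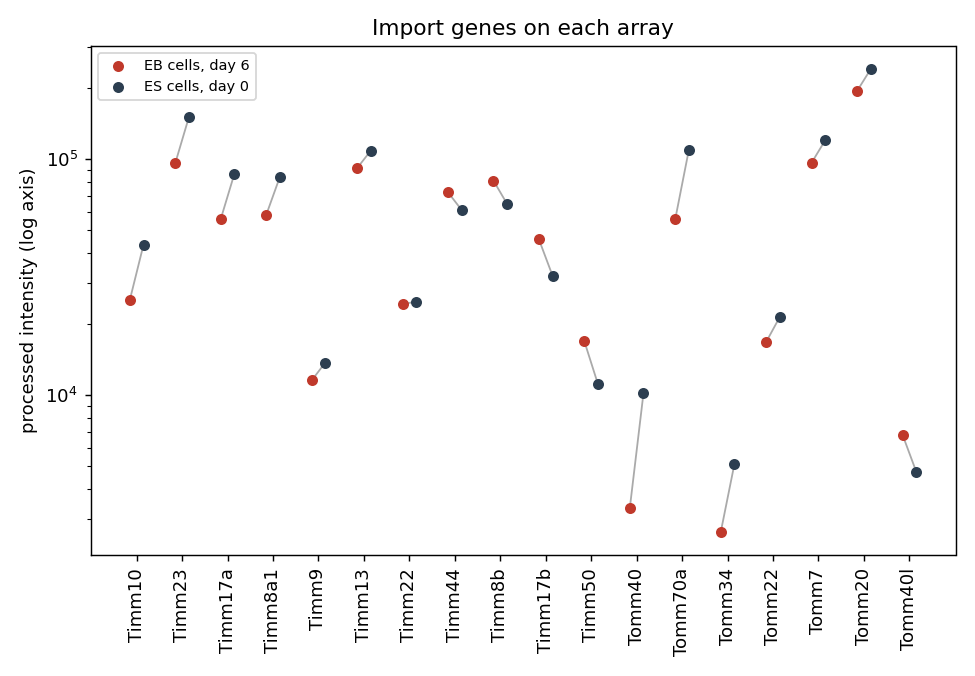
Processed intensity of the 18 measured import genes on a log axis, with day 6 left of day 0 for each gene, joined by a line, before scaling of the arrays. Tomm40 shows the steepest line, and Tomm40l, Timm17b, Timm50, Timm8b and Timm44 are the genes with a higher unscaled intensity on day 6.

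The TIM23 complex differed within itself. Timm23, the channel subunit, had 96286 on day 6 and 150892 on day 0 (-0.87), and Timm17a, its channel partner, had 55807 on day 6 and 86674 on day 0 (-0.86). Timm17b, the paralogue of Timm17a, had 45686 on day 6 and 32061 on day 0 (0.29), so the paralogues differed by -1.15 ± 0.29. Timm50, the receptor facing the intermembrane space, had 16898 on day 6 and 11121 on day 0 (0.38). Timm44, which tethers the import motor to the channel, had 72342 on day 6 and 60878 on day 0 (0.03). The median of these 5 genes was 0.03, with 2 of 5 below 0 and none of the 5 past 2-fold.

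Of the 5 small TIM chaperone genes measured as members, 4 were below 0 by their brightest probes, where 53.7% of all genes were. Timm10, a chaperone of the intermembrane space, had 25364 on day 6 and 43356 on day 0 (-0.997), just short of 2-fold. Its partner gene Timm9 had 11544 on day 6 and 13754 on day 0 (-0.48), while its fainter clone probes gave -0.02 and -0.04. Timm13 had 91614 on day 6 and 108627 on day 0 (-0.47). Timm22, the channel of carrier insertion, had 24285 on day 6 and 24929.7 on day 0 (-0.26), and a fainter probe gave 0.85. Timm8a1, a partner of Timm13, had 58023 on day 6 and 84053 on day 0 (-0.76), while its paralogue Timm8b had 81094 on day 6 and 64579.6 on day 0 (0.11), a gap of -0.86 ± 0.29. Timm8a2 read 59.0 on day 6 and 124 on day 0 and was not well above background on either array.

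Several subunits had older names on this array and fell outside the naming rule, so they were looked up by accession. Tomm5 and Tomm6, small TOM subunits, had differences of -0.92 and -0.88. Timm10b (Fxc1 on the array) had -0.69 and -0.60 by 2 RefSeq probes, and 1.62 by a fainter clone probe. Timm21, a TIM23 subunit, had 25641 on day 6 and 11838 on day 0 (0.89), and Timm29, a TIM22 subunit, had 0.50. Of the ribosomal proteins, Mrpl42 had -0.40 and -0.57 by its 2 probes, Mrpl57 had -0.50 by its brighter probe and 1.14 by its fainter one, and Mrpl58 had 0.38. Tomm20l was not well above background on either array.

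For some members, further probes of the same gene gave a second view of the value. In 40 members at least 2 probes were well above background on both days. The median range between such probes was 0.34, and 24 members had a range under 0.5. In 28 of the 40 members all such probes had 1 sign, and in 12 they had both. The 40 include Tomm40 and Mrps18b, whose second such probe is listed on the opposite strand. A range over 1 was found in 7 genes: Mrpl35, Tomm70a, Timm17b, Timm22, Mrps5, Mrps2 and Mrpl17.

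The value of Tomm70a depended on the probe. Its brightest probe gave -1.20, while 2 probes placed 1339 and 1394 bases further along the gene gave -0.06 and 0.01, with 37247 on day 6 and 33205 on day 0 and 29528 on day 6 and 25148 on day 0. A clone probe 3854 bases further along gave 1.35, at 1049 on day 6 and 353 on day 0. Only 1 of the 4 Tomm70a probes thus placed it past 2-fold lower.

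Mrpl35 had a like pattern. Its RefSeq probes gave -1.05 and -1.37, and a clone probe 2824 bases further along gave 1.32, at 2317 on day 6 and 797 on day 0. For Timm17b, 3 probes gave 0.25, 0.29 and 0.35, and a faint probe gave 1.53. The second Timm22 probe gave 0.85, the second Mrpl17 probe -0.35 at 249 on day 6 and 273 on day 0, and the clone probe of Mrps5 gave 0.49 where its 3 RefSeq probes gave -0.51 to -0.62. The faint clone probe of Mrps2 gave -0.00092, and its other probes -1.09 and -0.90.

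Sources were compared over the 152 member probes well above background on both arrays. Of these, 133 with a RefSeq accession had a median of -0.51 and 108 were below 0. The 19 with a clone accession had a median of -0.02 and 11 were below 0. The clone probes were mostly fainter, with a median of 1224 on day 6 and 797 on day 0. Source and brightness were thus largely mixed, and the sources were not compared at like brightness. Of the 13 such member probes with a mean intensity under 1000 units, 6 were below 0, with a median of 0.03. The 7600 gene probes in that range that were well above background on both arrays had a median of -0.02.

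**Figure D4:**
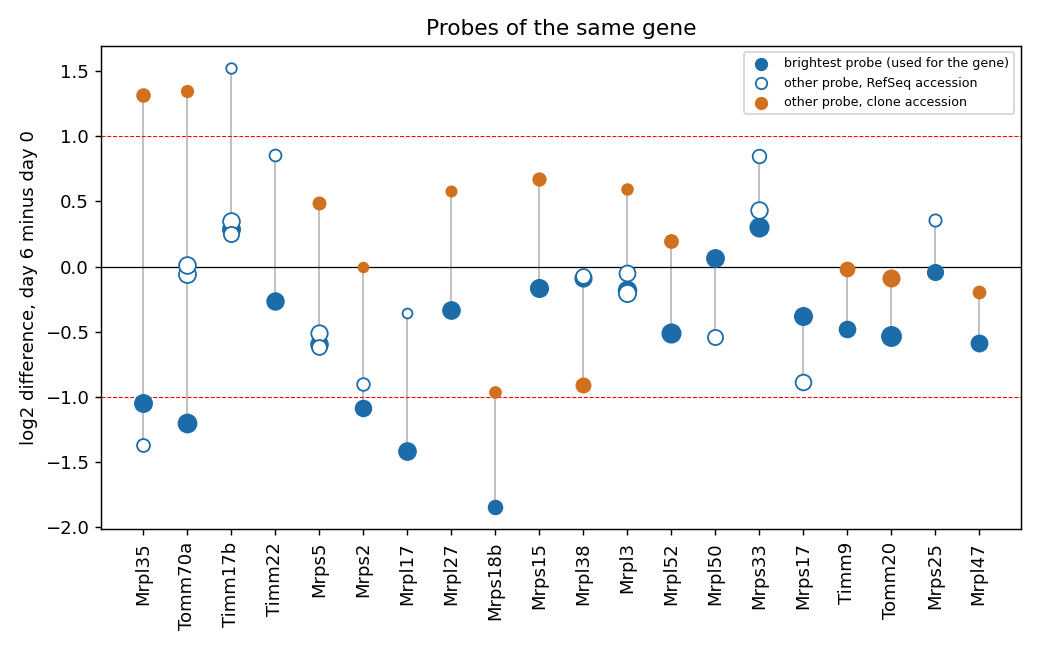
Log2 difference of each probe well above background on both arrays, for the 20 members with the widest range between probes, ordered by that range. Filled blue points are the brightest probe, open points other RefSeq probes and orange points clone probes, with point size following the log of intensity. Orange and small points lie mostly above the filled blue ones.

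Strand was a further point. Of the member probes, 120 with a RefSeq accession and 19 with a clone accession were listed on the strand of the RefSeq gene, 3 and 4 on the other, and 12 and 1 could not be placed. The 3 Mrpl18 probes were all listed on the other strand, for the RefSeq accession of Mrpl18 itself, and gave -0.91, -0.99 and -1.04. Because the array files use mm7 and the gene table a later assembly, whether the listed strand or the assembly differs was not tested. The 4 clone probes on the other strand were those of Tomm40, Mrps18b and Mrps30, and only Tomm40's and 1 of Mrps18b's 2 were well above background.

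Promoter sequence was examined because most members had differences of 1 sign. RefSeq promoter windows (GRCm38.p6, 250 bases before to 50 after the start) were given for 83 member genes, with 91 windows. Both strands were searched for the NRF1 motif (GCGCA, then any base, then GCGC), the GABPA motif CCGGAAG, the YY1 motif AAGATGG and the E-box CACGTG, the site type of Myc. The last bases of the GABPA motif, AAG, are the first of the YY1 motif, so matches of these motifs can overlap. These factors are known in mammals for nuclear genes of mitochondrial biogenesis. Capitals mark matches on either strand in 4 windows, chosen to show each of NRF1, GABPA and YY1 and members from both ends of the range. Mrps18b is at chr17:35916391-35916690 (minus strand), Mrps12 at chr7:28741772-28742071 (minus), Mrpl17 at chr7:105811038-105811337 (minus) and Mrpl14 at chr17:45686099-45686398 (plus).
Mrps18b promoter: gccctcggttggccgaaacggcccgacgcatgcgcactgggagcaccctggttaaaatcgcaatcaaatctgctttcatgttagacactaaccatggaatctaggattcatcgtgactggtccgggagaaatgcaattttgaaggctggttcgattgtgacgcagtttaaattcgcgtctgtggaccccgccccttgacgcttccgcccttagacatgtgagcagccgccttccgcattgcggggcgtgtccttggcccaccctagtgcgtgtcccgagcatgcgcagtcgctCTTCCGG
Mrps12 promoter: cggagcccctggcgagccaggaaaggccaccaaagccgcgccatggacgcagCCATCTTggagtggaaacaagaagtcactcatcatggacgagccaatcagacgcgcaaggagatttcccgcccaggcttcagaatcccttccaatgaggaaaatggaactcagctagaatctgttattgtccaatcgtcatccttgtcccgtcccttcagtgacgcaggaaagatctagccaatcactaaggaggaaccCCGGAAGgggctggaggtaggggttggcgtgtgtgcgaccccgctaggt
Mrpl17 promoter: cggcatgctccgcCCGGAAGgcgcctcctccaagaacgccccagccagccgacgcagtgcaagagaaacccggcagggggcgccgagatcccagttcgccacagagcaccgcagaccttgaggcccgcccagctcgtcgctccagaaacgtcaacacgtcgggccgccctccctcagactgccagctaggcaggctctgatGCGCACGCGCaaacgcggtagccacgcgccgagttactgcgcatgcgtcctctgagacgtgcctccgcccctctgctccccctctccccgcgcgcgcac
Mrpl14 promoter: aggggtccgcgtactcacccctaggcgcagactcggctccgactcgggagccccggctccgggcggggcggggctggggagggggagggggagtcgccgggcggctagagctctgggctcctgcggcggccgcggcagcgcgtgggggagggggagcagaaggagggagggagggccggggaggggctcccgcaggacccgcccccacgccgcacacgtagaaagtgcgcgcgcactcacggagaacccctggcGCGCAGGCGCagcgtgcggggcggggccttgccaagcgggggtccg

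The Mrps18b window holds the GABPA letters, the Mrps12 window those of GABPA and YY1, the Mrpl17 window those of NRF1 and GABPA, and the Mrpl14 window those of NRF1. Across windows, GABPA letters were in 35.2% of member windows and 8.86% of all 32851 windows, NRF1 in 15.4% and 4.60%, YY1 in 16.5% and 6.34%, and the E-box in 12.1% and 7.15%. All windows were taken whether or not their genes were measured here, and windows of genes of similar intensity were not compared. In all, 50 of the 83 member genes held NRF1, GABPA or YY1 letters. Medians of the log2 difference were -0.59 with and -0.48 without GABPA, -0.41 and -0.57 for NRF1, -0.69 and -0.45 for YY1, and -0.54 and -0.50 for the E-box. None of these gaps was tested, and a match of letters is no evidence of binding.

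The genes of the factors themselves were in a list of 12 regulators of mitochondrial biogenesis. Nrf1 had 3579 on day 6 and 4629 on day 0 (-0.59), Gabpa 12919.7 on day 6 and 15843 on day 0 (-0.52) and Yy1 23568 on day 6 and 32875 on day 0 (-0.70). At least 2-fold lower were Myc, with 3014 on day 6 and 23231 on day 0 (-3.17), Mycn, with 88340.1 on day 6 and 192356 on day 0 (-1.35), and Pprc1, a PGC-1 related coactivator, with 22769 on day 6 and 75348 on day 0 (-1.95). Ppargc1a, the coactivator PGC-1 alpha, was well above background on day 6 only, at 2684, and was at least 22.5-fold higher. The median of the list was -0.56, with members from far below to far above it.

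Some member genes share a start region with a neighbour on the opposite strand, and whether more do so than among all genes was not tested. Among RefSeq genes, 27 members had a measured divergent neighbour with starts within 1000 bases. The neighbours had a median of -0.28, with 20 of 27 below 0, where 53.7% of all genes were below 0. Members of these pairs had a median of -0.59. The pair Mrpl46 and Mrps11, 42 bases apart, joins both subunits, with -0.91 and -0.69, and counts from both sides. Mrps12 lies 147 bases from Sars2, a mitochondrial seryl-tRNA synthetase (-0.65), and Mrpl43 lies 116 bases from Twnk, the helicase of mitochondrial DNA (-0.79 and -0.74). Neighbours past 2-fold lower were Ppp1r10 beside Mrps18b (-1.12), Helq beside Mrps18c (-1.36) and Mitd1 beside Mrpl30 (-1.04), and Zfp189 beside Mrpl50 was higher (1.13). At that mark 20.9% of all genes were lower and 20.2% higher.

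Other genes of the organelle's gene expression also lay below 0 at the median. Of all genes measured, 53.7% were below 0 and 20.9% at least 2-fold lower. Translation factors had a median of -0.52, with 11 of 14 below 0 and 1 at least 2-fold lower, the elongation factor gene Gfm1 (6155 on day 6 and 13982 on day 0, -1.41). Assembly and ribosomal RNA maturation factors had a median of -0.46, with 14 of 17 below 0 and 2 at least 2-fold lower, Rbfa (-1.19) and Noa1 (-1.05). Mitochondrial DNA maintenance and transcription genes had a median of -0.74, with 13 of 13 below 0. Polrmt, the mitochondrial RNA polymerase, had 6983 on day 6 and 16042 on day 0 (-1.42), Tfb2m, its initiation factor, -1.03, and Tfam, which packages mitochondrial DNA, -0.35.

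Mitochondrial aminoacyl-tRNA synthetases, which charge the organelle's tRNAs, had a median of -0.44, with 11 of 17 (64.7%) below 0, against 53.7% of all genes. At least 2-fold lower were 4 (23.5%), a share near the 20.9% of all genes. The 4 were Mars2 (579 on day 6 and 1877 on day 0, -1.92), Cars2 (-1.48), Yars2 (-1.38) and Tars2 (-1.001). The highest of the list was Wars2 (0.77). Other import components had a median of -0.34, with 14 of 21 below 0. Chchd4, the receptor of the disulfide relay, had 27927 on day 6 and 61926 on day 0 (-1.37), Hspa9, the import motor's Hsp70, -1.15, and Immp2l, an inner membrane peptidase subunit, 8184 on day 6 and 2048 on day 0 (1.78).

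Respiratory chain and cytosolic ribosomal genes were mostly bright, with 58 of 81 and 77 of 83 at 50000 units or more, where all genes had a median of -0.32. Nuclear respiratory chain subunits had a median of -0.26, with 58 of 81 below 0 and 6 at least 2-fold lower: Atp5g1 (-1.38), Cox7a1 (-1.02), Ndufa11 (-1.02), Uqcrc1 (-1.01), and, by their bounds, Cox7b2 (at least 3.17-fold) and Cox8c (at least 2.40-fold), both well above background on day 0 only. The 6 past 2-fold lower were 7.41% of the list, where 20.9% of all genes were that much lower. The 58 bright ones had a median of -0.30. Cytosolic ribosomal proteins, taken by name stem, had a median of -0.17, with 69 of 83 below 0, and the 77 bright ones -0.15, with 81.8% below 0. Past 2-fold lower were the paralogues Rpl39l (-4.98), Rps4l (-3.33) and Rpl7l1 (-1.29), while Rpl3l, well above background on day 0 only, was at least 1.88-fold lower. Whether these medians differ from those of the members was not tested.

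**Figure D5:**
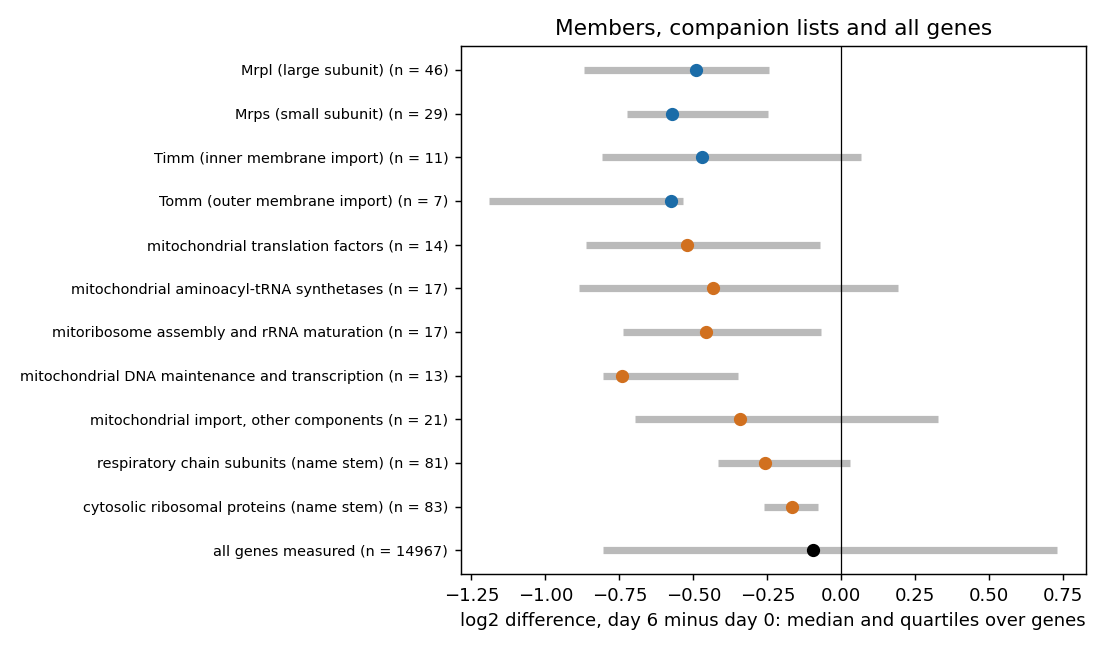
Median (point) and quartiles (bar) of the log2 difference, day 6 minus day 0, for the 4 member classes (blue), 7 companion lists (orange) and all genes measured (black). The member medians lie between -0.47 and -0.58, those of respiratory chain and cytosolic ribosomal genes at -0.26 and -0.17, and that of all genes at -0.09.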

How the data were processed

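Both arrays were of the Agilent 014868 design, read in 1 channel and extracted with Feature Extraction 9.5.3.1, per the file headers, which also name genome build mm7. The deposited scanner files give a background-subtracted, detrended intensity per spot with a software error. The authors also deposited a log2 value table (median 8.53), whose 2 sorted columns differ by at most 0.000469, so both arrays had been given the same distribution. The sources used here do not give how that was done. Both arrays lay on the same slide, so position on it and day cannot be told apart.

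Control and outlier spots were left out, spots of a probe averaged as log2 intensity, and the array's 75th percentile subtracted. Each gene took the value of its brightest probe (mean log2 intensity) among those well above background on either array. A value well above background on 1 array gives a bound, set against the lowest intensity well above background (85.2 on day 6, 102 on day 0). Names came from RefSeq accession (22951), symbol (6659) or older symbol (3109), and 8455 stayed unnamed. Named were all members past 2-fold, the 8 most extreme per direction of large, small and import genes, paralogues, probe conflicts and undetected members. The members and all lists were chosen with earlier results of these data known, and kinases and binding proteins were trimmed from the cytosolic ribosomal list after its values were seen. Software was R 4.3.3, limma 3.58.1, Python 3.11.15, numpy 2.4.6 and pandas 2.3.3. The counting was tested on simulated data. Alternatives covered scaling, background correction, filters and the choice of probe.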

Additional observations from a re-analysis of the deposited data

How the results depend on the processing

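No paired analysis was possible because each group had 1 array, and for the same reason no replicate could be left out. Of 104 class medians and member counts under 13 alternatives, 71 stayed within the software error (medians) or within 1.5 times (counts), 33 moved and 0 reversed. Without scaling the medians were -0.27 (large subunit), -0.35 (small subunit), -0.25 (Timm) and -0.35 (Tomm), and the counts of members 1.5-fold lower, 2-fold higher and 2-fold lower were 27, 2 and 5. With quantile normalization they were -0.21, -0.29 and -0.067 for large, small and Timm, with counts of 26, 2 and 6. The authors' value table gave -0.22, -0.29 and -0.063, with 26, 2 and 6. Cyclic loess, chosen after the data were seen, gave -0.23, -0.34 and -0.14, with 25, 2 and 6. Median scaling gave 20 members past 2-fold lower. The mean of a gene's probes gave a Timm median of -0.18 and 4 members past 1.5-fold higher, and probes in place of genes gave -0.027, with 10 probes past 1.5-fold higher, 62 past 1.5-fold lower, 4 past 2-fold higher and 21 past 2-fold lower, among more items. The median of all genes was 0.13 without scaling, -0.21 with median scaling and 0 with quantile normalization, and the members' median minus that of all genes ranged over all alternatives between -0.45 and -0.25.

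Of 13 members at least 2-fold lower, 4 stayed past 2-fold in all 12 alternatives that give gene values: Mrps18b, Tomm40, Mrps12 and Mrps34. Mrpl17 came under it with the mean of probes (-0.88), and Tomm34 without scaling (-0.96). The other 7 came under it in 4 or more. Of 1116 gene values, 282 moved by more than the software error. The sign changed in 59 of them, in 21 of 93 members, with the most (12 members each) under quantile normalization and in the authors' value table. Of members past 2-fold, 1 changed sign, Tomm70a at 0.024 with the mean of its probes, and the other 20 had differences between -0.34 and 0.11. The cause was not tested. The number of arrays limits the precision of every value.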
